A study of Mus musculus with 13 samples.

Results

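Neuregulin 1 (Nrg1), a growth factor, and the 4 receptors of the ErbB family (Egfr, Erbb2, Erbb3 and Erbb4) were examined for 5-hydroxymethylcytosine (5hmC) in mouse breast tumours. The 5 genes were represented by the 13 bins of 300 kb that their bodies overlap, out of 9097 deposited bins, and all 13 were among the 8576 bins kept for testing. The genes were chosen by the 5hmC values of the Nrg1 bin that holds the start of the gene, seen to be lower in Phd2 heterozygous than in wild-type tumours, so values of that comparison are given as a description, without a test. The sFlk1 tumours and their empty vector controls come from other mice, and that comparison is tested.

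All tumours were PyMT-induced, that is, driven by the polyoma middle T oncogene, in FVB mice, and each is 1 sample. Group 1 came from 4 Phd2+/- mice aged 16 weeks, which lack 1 copy of the gene of the oxygen sensor PHD2, and group 2 from 3 Phd2+/+ mice aged 16 weeks. Group 3 came from 3 mice aged 12 weeks that had received the PRRL2-sFlk1 plasmid by hydrodynamic injection, and group 4 from 3 mice aged 12 weeks injected with the empty PRRL2 plasmid. sFlk1 is a soluble VEGF receptor. Per the labels, the Phd2+/- genotype restores vessels and oxygenation and sFlk1 makes tumours more hypoxic. Hydrodynamic injection is known to deliver plasmids mainly to the liver, not to the tumour. The 2 models differ in age as well as treatment and were not compared with each other by a test. DNA came from whole tumours, so a change in the mix of cells and a change in 5hmC within 1 cell type cannot be told apart, and a DNA mark gives no expression markers with which to check the tissue.

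ErbB receptors are tyrosine kinases that pair up when a ligand of the EGF family binds. Neuregulins bind Erbb3 and Erbb4, EGF-like ligands bind Egfr, and Erbb2, which has no known ligand, is the favoured partner of the others; the pairs signal through Ras and PI3K. In the mammary gland Egfr acts in duct growth and Erbb4 in lactation, and ERBB2 is amplified in a share of human breast cancers. 5hmC is made from 5-methylcytosine by the oxygen-dependent TET enzymes, mostly at CpG sites, and is often found in the bodies of active genes.

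In GRCm38 coordinates Nrg1 spans chromosome 8 from 31807452 to 32891609 and Erbb4 chromosome 1 from 68031884 to 69108576, each a body of 1080 kb read from the minus strand. Egfr (chromosome 11, from 16752203 to 16913907) covers 162 kb, Erbb2 (chromosome 11, from 98412484 to 98437716) 25.2 kb and Erbb3 (chromosome 10, from 128567523 to 128589635) 22.1 kb. Nrg1 fills 192, 300, 300 and 293 kb of its 4 bins from the 5′ end, so that their values are mainly those of the gene. Erbb4 fills its 3 middle bins, but only 109 kb of bin 1 and 68.1 kb of bin 5, the bins at its ends. Egfr fills 47.8 and 114 kb of its 2 bins. The single bins of Erbb2 and Erbb3 hold many neighbours. The Erbb2 bin includes Grb7, Ikzf3 and Ormdl3, and the Erbb3 bin includes Smarcc2, Rnf41, Pa2g4 and Ikzf4. Bins are numbered below from the 5′ end of each gene, so Nrg1 bin 1 holds its annotated start.

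RefSeq promoters (GRCm38.p6) were at hand for Erbb4, Erbb2 and Egfr. The 250 bases before the transcript start of that table are shown 5′ to 3′ on the gene's strand, with CpG sites in capitals, as the sites where 5hmC is mostly found. Each window is a small part of its 300 kb bin, and the bin value cannot be assigned to it.
Erbb4, chr1:69108060-69108309, minus strand: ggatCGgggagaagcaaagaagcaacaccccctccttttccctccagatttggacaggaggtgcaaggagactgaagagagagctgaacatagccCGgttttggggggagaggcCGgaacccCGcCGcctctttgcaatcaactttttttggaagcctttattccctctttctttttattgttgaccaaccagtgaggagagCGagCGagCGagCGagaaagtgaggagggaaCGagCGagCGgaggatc
Erbb2, chr11:98412234-98412483, plus strand: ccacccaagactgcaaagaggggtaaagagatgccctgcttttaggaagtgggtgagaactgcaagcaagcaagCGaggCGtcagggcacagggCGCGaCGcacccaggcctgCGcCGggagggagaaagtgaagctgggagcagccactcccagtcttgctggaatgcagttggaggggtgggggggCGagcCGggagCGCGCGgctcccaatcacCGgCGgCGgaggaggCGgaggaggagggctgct
Egfr, chr11:16751953-16752202, plus strand: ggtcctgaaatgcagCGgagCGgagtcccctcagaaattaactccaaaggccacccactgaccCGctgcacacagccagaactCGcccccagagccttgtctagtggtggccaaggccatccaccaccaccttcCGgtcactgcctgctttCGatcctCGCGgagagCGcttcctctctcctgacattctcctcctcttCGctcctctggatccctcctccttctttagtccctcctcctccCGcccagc
The motif counted was CG, which reads the same on both strands. The windows held 12 sites at Erbb4, 16 at Erbb2 and 11 at Egfr, where the median of 32851 RefSeq promoters was 6. As many sites or more were held by 33.5% of promoters for Erbb4, 25.4% for Erbb2 and 35.6% for Egfr. All 3 promoters were thus richer in CpG than the median promoter. A link between promoter CpG and the 5hmC of the bins was not tested.

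The table gives percentages without read counts. The depth behind a value is therefore unknown, no counting interval can be given, and a listed 0 can mean missing data as well as absent 5hmC. Among the 169 member values 3 were 0. Over the kept bins the tumours averaged 2.87% ± 0.265 (SD, n = 4) in Phd2 heterozygous, 2.34% ± 0.137 (SD, n = 3) in Phd2 wild-type, 2.46% ± 0.0670 (SD, n = 3) in sFlk1 and 2.68% ± 0.158 (SD, n = 3) in empty vector tumours. The number of kept bins at 0 ran from 74 in Phd2 heterozygous tumour 3 to 428 in sFlk1 tumour 3.

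Levels differed widely between the bins of the 5 genes. Erbb3, Erbb2 and Egfr cover 22.1, 25.2 and 162 kb, so their bins hold mostly other sequence. The order below is therefore that of bins. Averaged over its bins and all 13 tumours, 5hmC was 4.45% at Erbb3, the kinase-impaired receptor that couples to PI3K, 3.92% at Egfr, 2.86% at Erbb2, 2.40% at Nrg1 and 1.42% at Erbb4. The median bin of the genome held 2.36%. Within a gene the group means of 1 model differed by at most 1.66 percentage points, at Egfr. Erbb3 lay above Erbb2 and above Nrg1 in 13 of 13 tumours. Nrg1 lay above Erbb4 in 12 of 13, Egfr above Erbb2 in 12 of 13, and Erbb2 above Nrg1 in 11 of 13. The order of Erbb3 and Egfr was less even: Erbb3 was the higher of the pair in 9 of 13 tumours, but in 1 of 4 Phd2 heterozygous tumours. The mean gap between these neighbours was 0.530 percentage points with an SD of 0.763, and that between Erbb2 and Nrg1 was 0.467 with an SD of 0.817. Both mean gaps were thus smaller than the spread of the gap between single tumours, which is not the error of the mean. The gaps between Egfr and Erbb2 (1.05, SD 0.824) and between Nrg1 and Erbb4 (0.976, SD 0.573) were larger than their spread.

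**Figure D1:**
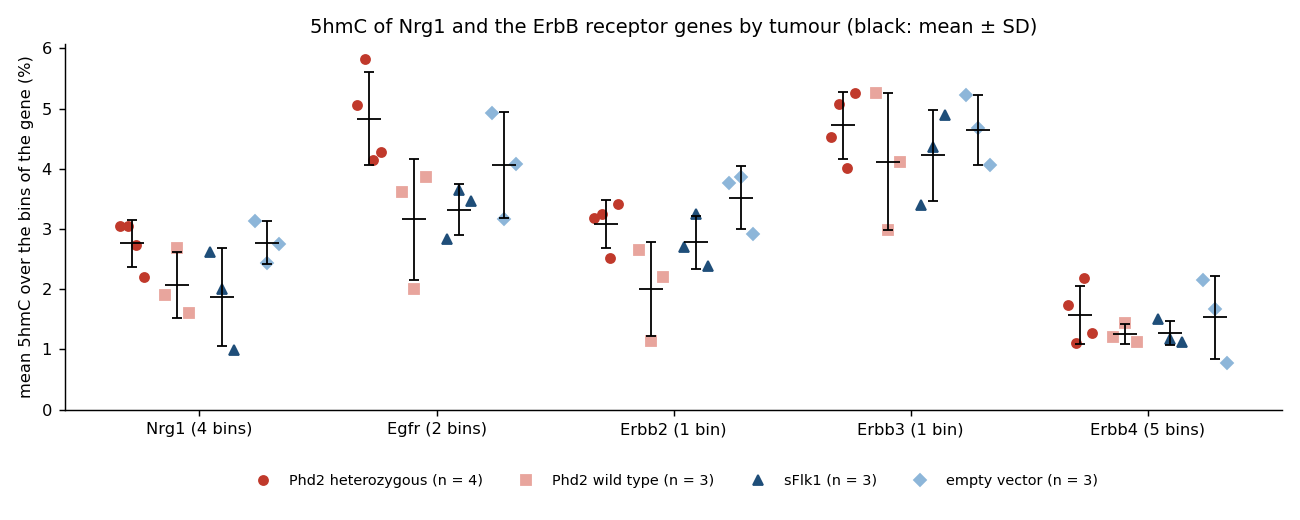
Mean 5hmC (%) over the bins of each gene, 1 point per tumour, with black bars for mean ± SD in Phd2 heterozygous (n = 4), Phd2 wild-type, sFlk1 and empty vector tumours (n = 3 each). Erbb4 lies lowest, with group means of 1.26% to 1.57%, and sFlk1 tumours average less than empty vector tumours at all 5 genes while the groups overlap.

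Set beside the mean of its neighbourhood, a gene could lie above or below it. In the 6 tumours of the sFlk1 model, the Egfr bins held 3.69% and the 3 bins on each side 1.45%, a gap of 2.24 percentage points (SD 0.677) with Egfr higher in 6 of 6 tumours (exact sign permutation, two-sided, p = 0.0312, the smallest that 6 tumours allow). The flank of Egfr at lower coordinates was nearly bare of 5hmC, at 0.602% over 13 tumours. At higher coordinates the flank held 2.31% and its nearest bin 3.21%, against 3.92% at Egfr, so the gap was smaller on that side. The Erbb3 bin held 4.43% against 2.54% in its flanks, higher in 6 of 6 (gap 1.89, SD 0.397, exact p = 0.0312). Against 1 bin on each side that gap was 0.492 (exact p = 0.0938), so the Erbb3 bin stood little above its nearest neighbours. Erbb4 lay below its flank mean, with 1.40% in its bins against 2.40% in the flanks, lower in 6 of 6 tumours (gap -0.994, SD 0.579, exact p = 0.0312). It was not below both of its nearest bins. Over 13 tumours its bins averaged 1.42%, the bin just before its start 3.40% and the one just past its end 1.28%. Nrg1 (2.32% against 2.70%, exact p = 0.406) and Erbb2 (3.15% against 3.70%, exact p = 0.125) did not pass. The Nrg1 flank mean was raised by 1 bin, from 33600001 to 33900000, which held 6.44% over 13 tumours. The other flank bins of Nrg1 held 1.56% to 2.42%. These p-values were not adjusted for the 5 genes. In the 7 tumours of the Phd2 model the body was higher than the flanks in 7 of 7 tumours at Egfr and at Erbb3 and in 0 of 7 at Erbb4 and at Erbb2.

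Along Nrg1, 5hmC was uneven. In the sFlk1 model its start bin was the lowest of the 4 bins in 6 of 6 tumours. Bin 1 held 0.849%, 1.14% and 0% in the sFlk1 tumours and 0.326%, 0.800% and 1.34% in the empty vector tumours. The groups overlapped, at 0.664% ± 0.594 in sFlk1 and 0.822% ± 0.508 in empty vector tumours (SD, n = 3 each). The other 3 bins averaged 2.27% ± 0.941 in sFlk1 and 3.42% ± 0.579 in empty vector tumours. Within a tumour, bin 1 lay 2.35, 1.15 and 1.32 percentage points below the rest of the gene in sFlk1 tumours, and 3.75, 2.17 and 1.88 below it in empty vector tumours. Over the 6 tumours the gap was -2.10 percentage points (SD 0.933, lower in 6 of 6, exact sign permutation, two-sided, p = 0.0312, the smallest possible). The 0% of sFlk1 tumour 3 can be missing data, so the counts of 6 of 6 and this p rest in part on it. Without that tumour the gap was -2.26 (exact sign permutation p = 0.0625, the smallest then possible). The gap was 0.995 percentage points less negative in sFlk1 tumours (SE 0.692, exact permutation p = 0.30, where 0.1 is the smallest that 3 against 3 allows), and 0.42 without empty vector tumour 1.

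In the Phd2 model the start bin was the lowest of the 4 in 3 of 4 heterozygous tumours, with bin 2 lower in heterozygous tumour 3 (0.976%), and in 0 of 3 wild-type tumours. Bin 3 was the highest in 2 of 4 heterozygous tumours and in wild-type tumour 3. In Phd2 heterozygous tumours bin 1 held 0.398%, 1.33%, 1.57% and 0.484%, and in wild-type tumours 2.07%, 3.51% and 1.65%. This is the value that led to the choice of the genes. All heterozygous lay below all wild-type tumours, as they did in 0.933% of all bins. The highest of the 10 other values of the series was 1.57%, against 1.65% in the lowest wild-type tumour. Tumours of the sFlk1 model among these were younger. A share of bins with 1 group above all others was not counted. Bin 4, at the far end of the gene, ran the other way, with 3.75%, 4.51%, 3.86% and 2.72% in heterozygous and 1.54%, 2.14% and 1.21% in wild-type tumours. The groups did not overlap there, and heterozygous tumours lay wholly above wild-type tumours in 11.0% of all bins. Bin 3 held 6.77%, 4.43%, 4.52% and 2.42% in heterozygous and 2.05%, 3.04% and 2.74% in wild-type tumours, which overlap through heterozygous tumour 4. Bin 2 held 1.85% ± 0.995 in heterozygous (SD, n = 4) and 1.63% ± 0.682 in wild-type tumours (SD, n = 3).

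The gap between bin 1 and the rest of Nrg1 was thus -3.53, -2.29, -1.55 and -2.30 percentage points in the heterozygous tumours and 0.207, 1.10 and 0.0466 in the wild-type tumours. Wild-type tumours were the only group of the 4 in which bin 1 was not below the rest of the gene. The gap holds the bin 1 value that led to the choice of the genes, so it repeats that choice and is a description. Heterozygous tumours averaged 3.36% ± 0.509 (SD, n = 4) over the remaining bins, and wild-type tumours 1.96% ± 0.415 (SD, n = 3). As bin 1 and bins 3 and 4 differed in opposite directions, the mean over the whole gene shows little of either, at 2.76% ± 0.394 in heterozygous and 2.07% ± 0.555 in wild-type tumours. Divided by each tumour's own mean over the genome, Nrg1 stood at 0.960 ± 0.0669 in heterozygous and 0.897 ± 0.297 in wild-type tumours. The bin next to the start, outside the gene, held 1.85% ± 0.426 in heterozygous and 1.54% ± 0.482 in wild-type tumours, so heterozygous tumours were not the lower ones there.

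**Figure D2:**
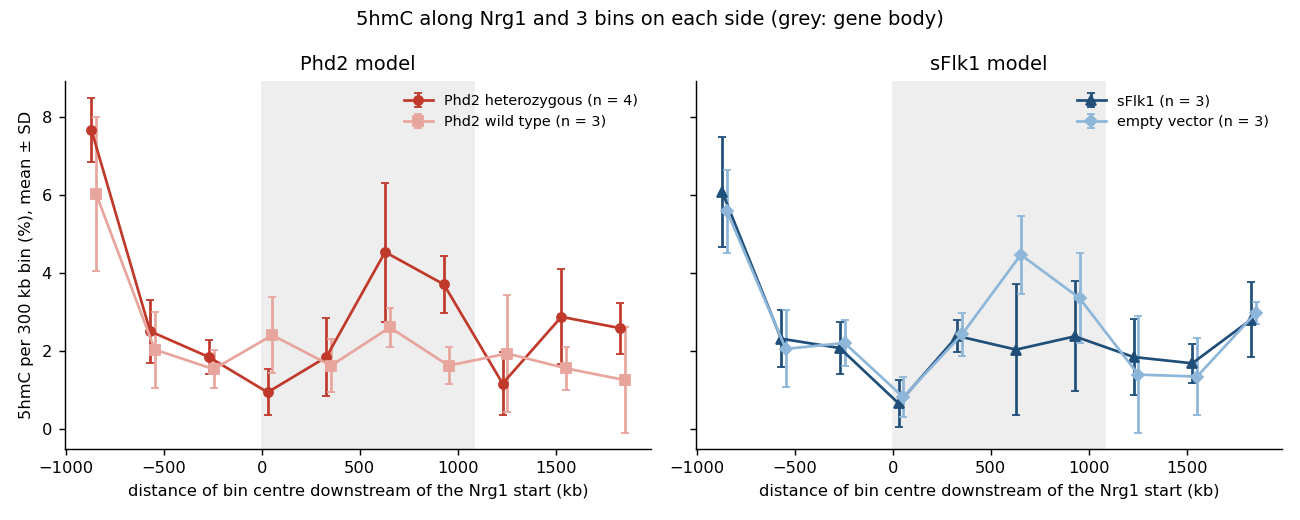
5hmC (%, mean ± SD) in the 4 bins of Nrg1 (grey) and 3 bins on each side, by distance of the bin centre from the gene's start in kb, for the Phd2 model (left) and the sFlk1 model (right). Phd2 heterozygous tumours dip at the start (0.946%) and rise to 4.54% in bin 3, while wild-type tumours hold 2.41% and 2.61% there; in the sFlk1 model both groups dip at the start and empty vector tumours rise to 4.47%.

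The sFlk1 comparison, against empty vector, asks whether 5hmC at these genes differs when tumours are made more hypoxic. At Nrg1 the mean over its bins was 2.61%, 2.01% and 0.987% in sFlk1 tumours and 3.14%, 2.43% and 2.75% in empty vector tumours. The groups overlapped through sFlk1 tumour 1, with 1.87% ± 0.820 in sFlk1 and 2.77% ± 0.355 in empty vector tumours (SD, n = 3 each; difference -0.904, SE 0.516, exact permutation p = 0.20). sFlk1 tumour 3, which had the most bins at 0 of all tumours, carried much of this: without it the difference was -0.463. The widest gap was that of bin 3. Bin 3 held 3.92%, 1.46% and 0.738% in sFlk1 tumours and 5.59%, 3.66% and 4.17% in empty vector tumours, where sFlk1 tumour 1 lay above empty vector tumour 2. The difference was -2.43 percentage points (SE 0.885), with an unadjusted limma p of 0.0106 and an adjusted p of 0.596 over all bins. The mean SD within groups was 1.24 in this bin, where the 500 bins of nearest level had a median of 0.788. Without sFlk1 tumour 3 the difference was -1.79, and the adjusted p ran from 0.331 to 0.911 over the alternatives. Bin 4 held 2.38% ± 1.41 in sFlk1 and 3.36% ± 1.15 in empty vector tumours (difference -0.976, SE 0.718, limma adjusted p = 0.789). That difference was -0.177 without sFlk1 tumour 3 and -0.409 without empty vector tumour 1. Bin 2 held 2.39% ± 0.402 in sFlk1 and 2.43% ± 0.558 in empty vector tumours.

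Among the receptor genes, Egfr, the receptor of EGF and amphiregulin, averaged 2.84%, 3.65% and 3.47% in sFlk1 tumours and 4.92%, 3.17% and 4.08% in empty vector tumours. Empty vector tumour 2 lay among the sFlk1 tumours (difference -0.739, SE 0.564, exact permutation p = 0.30), and without empty vector tumour 1 the difference was -0.306. Erbb2 held 2.70%, 3.25% and 2.39% in sFlk1 and 3.77%, 3.87% and 2.92% in empty vector tumours. sFlk1 tumour 2 lay above empty vector tumour 3, and the difference was -0.742 (SE 0.392, exact permutation p = 0.20). Erbb3 held 3.40%, 4.36% and 4.89% in sFlk1 and 5.22%, 4.67% and 4.06% in empty vector tumours (difference -0.431, SE 0.551, exact permutation p = 0.50), with -0.0216 left without sFlk1 tumour 1 and -0.144 without empty vector tumour 1. Erbb4 averaged 1.51%, 1.17% and 1.13% in sFlk1 and 2.15%, 1.67% and 0.779% in empty vector tumours (difference -0.262, SE 0.418, exact permutation p = 0.60). Weighted by the length of gene body in each bin, the Erbb4 difference was -0.0801 (exact permutation p = 0.80). The groups overlapped at every one of these genes, and no p could have passed with 3 tumours a group.

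Over the 13 bins limma called 0 at an adjusted p under 0.05, where 0.0117% of all bins were called, and the adjusted p ran from 0.596 to 0.994. At an unadjusted p under 0.05 there was 1 bin (Nrg1 bin 3), where 7.18% of all bins had one. The mean was lower in sFlk1 tumours in 12 of 13 bins, with Erbb4 bin 2 as the exception (2.18% ± 0.705 in sFlk1 and 1.80% ± 0.803 in empty vector tumours), and 59.5% of all bins were lower. Relative to each tumour's mean, 10 of 13 bins were lower, against 47.9% of all bins. The median difference was -0.483 percentage points over the 13 bins and -0.146 over all bins. Bins of 1 gene adjoin and are not independent. In 0 of 13 bins did all sFlk1 tumours lie below all empty vector tumours, as they did in 8.24% of all bins.

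**Figure D3:**
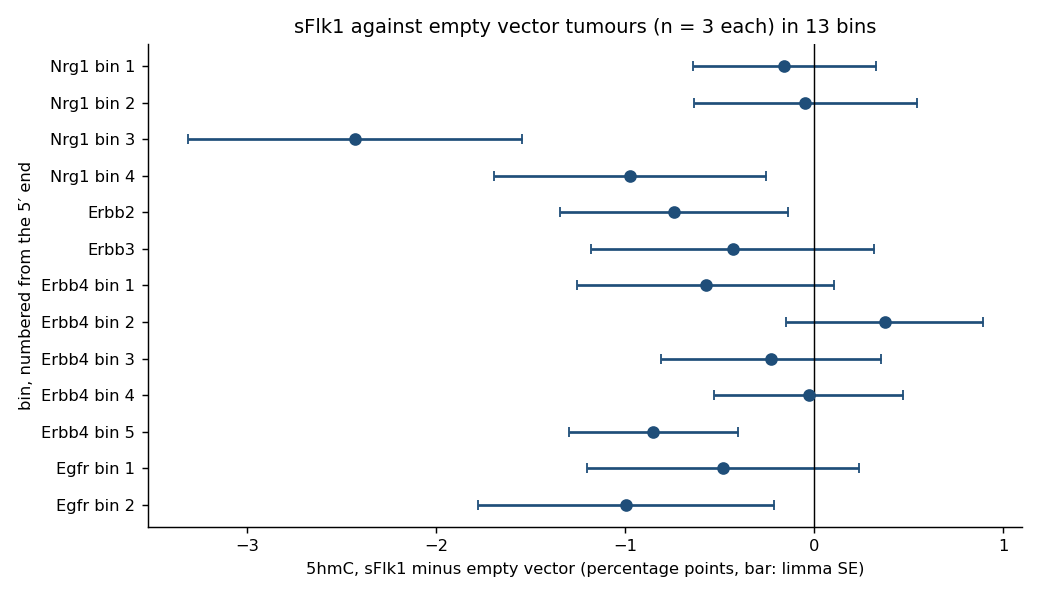
Difference in 5hmC (percentage points) between sFlk1 and empty vector tumours (n = 3 each) in the 13 bins, numbered from the 5′ end of each gene, with limma SE as bars. Points lie left of 0 in 12 of 13 bins, and Nrg1 bin 3 is farthest out at -2.43.

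In the Phd2 model the mean was higher in heterozygous tumours in 11 of 13 bins, and 75.1% of all bins were higher; relative to each tumour's mean it was 9 of 13, against 46.8%. The 2 lower bins (24.8% of all bins were lower) were Nrg1 bin 1 and Erbb4 bin 4 (1.12% ± 0.708 in heterozygous and 1.14% ± 0.468 in wild-type tumours). All heterozygous lay above all wild-type tumours in 3 of 13 bins (11.0% of all bins) and below them in 1 (0.933% of all bins). Nothing is read from these counts, since the members were chosen with this comparison in view. Egfr showed the widest gap among the receptors, with 5.06%, 5.82%, 4.15% and 4.28% in heterozygous and 3.62%, 2.01% and 3.86% in wild-type tumours. The groups did not overlap, with a heterozygous mean of 4.83% ± 0.773 (SD, n = 4) and a wild-type mean of 3.16% ± 1.00 (SD, n = 3). The difference was 1.66 percentage points, and 1.09 without wild-type tumour 2. Divided by each tumour's mean, Egfr stood at 1.68 ± 0.149 in heterozygous and 1.34 ± 0.364 in wild-type tumours, and the groups then overlapped, with 1.48 in heterozygous tumour 3 and 1.49 and 1.60 in wild-type tumours 1 and 3. Erbb2 held 3.18%, 3.24%, 2.51% and 3.41% in heterozygous and 2.65%, 1.14% and 2.21% in wild-type tumours, which overlap through heterozygous tumour 3. Wild-type tumour 2, the lowest in the genome-wide mean at 2.18%, was also the lowest at Egfr, Erbb2 and Erbb3. Erbb3 held 4.72% ± 0.561 in heterozygous and 4.12% ± 1.14 in wild-type tumours, a difference of 0.597 that was 0.0291 without wild-type tumour 2. Divided by each tumour's mean the order turned, with 1.66 ± 0.282 in heterozygous and 1.75 ± 0.402 in wild-type tumours.

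Erbb4 was low in all 4 groups. Its body averaged 1.57% ± 0.484 (SD, n = 4) in Phd2 heterozygous, 1.26% ± 0.164 in wild-type, 1.27% ± 0.204 in sFlk1 and 1.53% ± 0.695 in empty vector tumours (SD, n = 3 each), or 0.518 to 0.565 times the genome-wide mean. From the 5′ end its bins held 1.70%, 1.79%, 1.34%, 1.07% and 1.21% over all 13 tumours, at percentiles 25.4 to 40.1 of all bins. The bin just before the start held 3.40% and the one just past the end 1.28%, so 5hmC was lower inside the gene than upstream of it, and as low just past its end. The start bin was not set apart from the rest of the gene in the sFlk1 model (gap 0.456 percentage points, SD 1.38, lower in 3 of 6 tumours, exact sign permutation p = 0.438). It was the most variable of the 5, at 3.08%, 0.299% and 1.06% in sFlk1 and 3.59%, 0.847% and 1.73% in empty vector tumours. Its mean SD within groups was 1.09, where the 500 bins of nearest level had a median of 0.569. Bins 3 and 4 also spread more than such bins (0.924 against 0.508 and 0.73 against 0.479). So did Nrg1 bins 1, 3 and 4 and Egfr bin 2, so a wide spread was not particular to Erbb4. Erbb4 bins 2 and 5 were near theirs (0.519 against 0.582 and 0.5 against 0.499). Within single tumours the highest and lowest of the 5 bins lay 0.61 to 2.65 percentage points apart (median 1.81), so the averages are more even than the tumours. The highest bin was bin 1 or 2 in 10 of 13 tumours, and the lowest was bin 4 in 6 and bin 5 in 3, with both together in 7 of 13. In bin 5, which holds the 3′ end, the values were 0.668%, 0.784% and 1.00% in sFlk1 and 1.58%, 2.53% and 0.898% in empty vector tumours (difference -0.851, SE 0.445, limma adjusted p = 0.702).

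**Figure D4:**
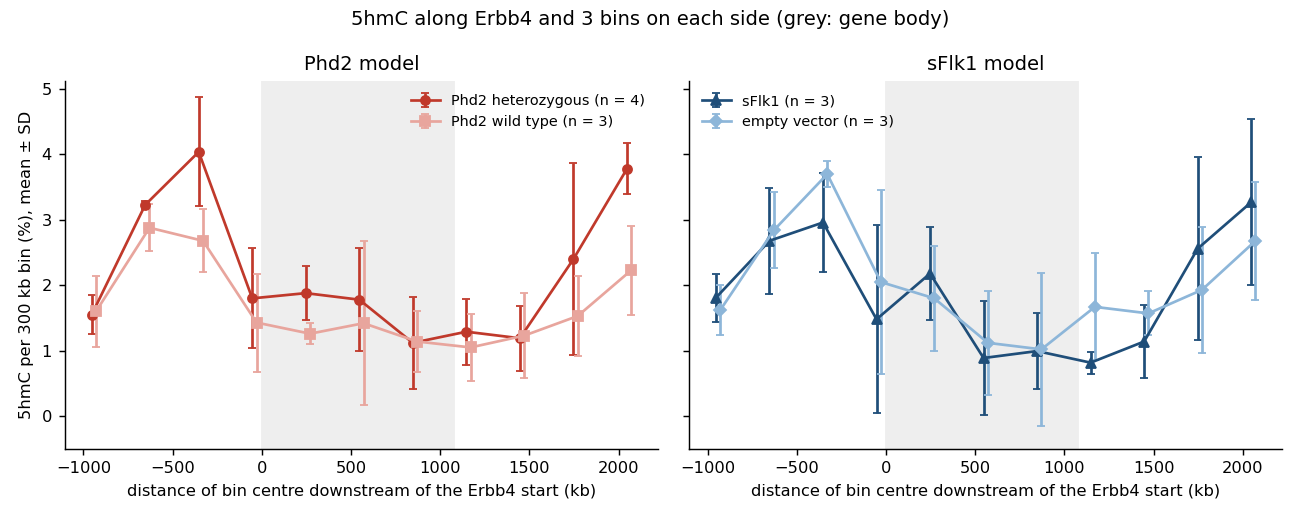
5hmC (%, mean ± SD) in the 5 bins of Erbb4 (grey) and 3 bins on each side, by distance of the bin centre from the gene's start in kb, for the Phd2 model (left) and the sFlk1 model (right). All 4 groups lie near or below 2% inside the gene and higher just upstream of it, where the bin before the start averages 3.40%.

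The other genes of the pathway were 32, assigned to 29 distinct bins by the bin with most of the gene body. Grb7 shares the Erbb2 bin, Rnf41 and Pa2g4 share that of Erbb3, and Areg, Ereg and Epgn share 1. Counts below are of genes, so a shared bin enters again with each of its genes. The shares of all bins beside them count each bin once. Each value is that of a whole bin of 300 kb, so it is not that of the named gene alone. The bins of Nrg2 and Hbegf adjoin, as do those of Areg and Btc. Against empty vector tumours 23 of the 32 had a lower and 9 a higher mean in sFlk1 tumours, 0 passed with limma (lowest adjusted p 0.626), and 2 had an unadjusted p under 0.05, Hbegf and Hras. Of all bins 59.5% were lower, 0.0117% passed and 7.18% had an unadjusted p under 0.05. The median difference was -0.510, where that of all bins was -0.146. The median level of these bins was 4.20%, above the 2.36% of the median bin. Relative to each tumour's mean, 19 of 32 were lower, against 47.9% of all bins. In Phd2 heterozygous tumours 28 had a higher and 4 a lower mean than in wild-type tumours, and 75.1% of all bins were higher (median difference 0.675, where that of all bins was 0.385). Relative to each tumour's mean 12 of 32 were higher, against 46.8% of all bins.

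Ligand genes spanned the widest range of levels. The bin of Nrg2, a close relative of Nrg1, held 5.23% ± 1.55 in sFlk1 and 6.53% ± 0.273 in empty vector tumours, and 8.19% ± 1.77 in Phd2 heterozygous and 5.02% ± 0.819 in wild-type tumours. Nrg3, another relative, was at the other end with 0.764% ± 0.640 in sFlk1 and 0.485% ± 0.647 in empty vector tumours, and 0.442% ± 0.328 in heterozygous and 0.604% ± 0.251 in wild-type tumours. Nrg1 thus lay between its relatives. Hbegf, a ligand of Egfr and Erbb4, held 3.97% ± 0.863 in sFlk1 and 6.32% ± 1.25 in empty vector tumours (difference -2.35, SE 0.931, limma adjusted p = 0.626). Among the sheddase genes, whose proteases free the ligands from the membrane, Adam10 held 4.97% ± 0.463 in sFlk1 and 5.44% ± 1.88 in empty vector tumours, and Bace1 held 2.41% ± 0.400 in sFlk1 and 3.29% ± 1.40 in empty vector tumours.

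Downstream, all 5 adaptor genes, with Grb7 in the Erbb2 bin, had a lower mean in sFlk1 tumours, as did 59.5% of all bins. Gab1, a docking protein for PI3K, held 5.69% ± 0.250 in sFlk1 and 7.06% ± 0.989 in empty vector tumours. Sos1, the exchange factor for Ras, held 2.76% ± 0.532 in sFlk1 and 4.23% ± 0.382 in empty vector tumours (limma adjusted p = 0.736). The PI3K branch was led by Pik3r1, the regulatory subunit, at 7.0% ± 0.471 in sFlk1 and 7.59% ± 1.84 in empty vector tumours. Pik3ca, the catalytic subunit, held 4.14% ± 0.409 in sFlk1 and 3.43% ± 0.0894 in empty vector tumours. The kinase gene Akt1 held 3.38% ± 1.63 in sFlk1 and 3.99% ± 1.01 in empty vector tumours. In the Ras-MAPK branch 3 of 6 were lower, and 2 of 6 by the mean of all bins a gene overlaps, where Map2k1 turned to 0.0597. Hras held 3.45% ± 0.521 in sFlk1 and 5.00% ± 0.876 in empty vector tumours (difference -1.55, SE 0.731, limma adjusted p = 0.673). Map2k1 (MEK1) held 2.55% ± 0.691 in sFlk1 and 3.10% ± 0.775 in empty vector tumours, and Mapk3 (ERK1) 4.82% ± 0.984 in sFlk1 and 4.23% ± 0.618 in empty vector tumours. The 5 negative regulators lie in 4 distinct bins, and all were lower in mean, against 59.5% of all bins. Errfi1, an inhibitor of ErbB kinases, held 5.74% ± 0.735 in sFlk1 and 7.63% ± 1.34 in empty vector tumours (limma adjusted p = 0.740). Rnf41, a ubiquitin ligase that lowers Erbb3 protein, has the values of the Erbb3 bin.

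**Figure D5:**
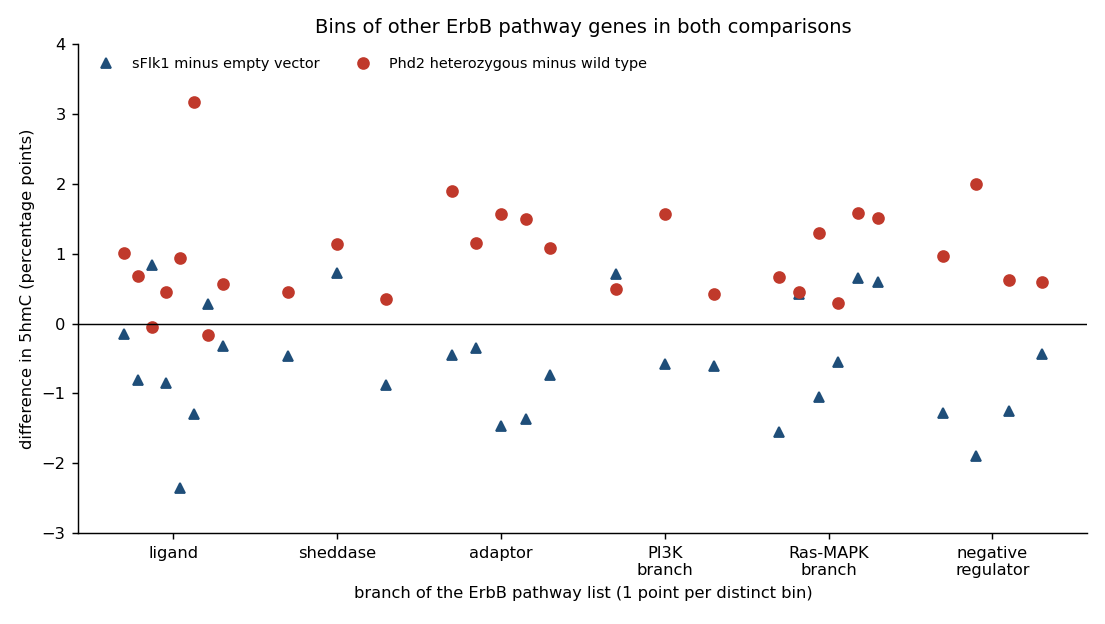
Difference in 5hmC (percentage points) in the bins of 32 other ErbB pathway genes, by branch, 1 point per distinct bin, for sFlk1 minus empty vector (triangles) and Phd2 heterozygous minus wild type (circles). The 32 genes lie in 29 bins, and genes that share a bin share its point. Counted by gene, the circles lie above 0 for 28 of 32 and the triangles below 0 for 23 of 32. Of the sFlk1 differences 0 passed.

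The bins whose 13 values were nearest to those of Nrg1 bin 1 were found by the mean absolute difference over the 13 tumours. It had a median of 1.47 percentage points over all other bins (1.56 for Erbb2 and 2.2 for Erbb3). The nearest bins lie below that median by the way they were picked. The values used include those of the Phd2 model, so this is a description without a test. The nearest 2 hold no protein-coding gene, on chromosome 14 from 109500001 to 109800000 (0.458 percentage points) and on chromosome 10 from 109200001 to 109500000 (0.479). The next holds the Hoxc genes from Hoxc13 to Hoxc4 and Smug1 (0.496), with 1.29% ± 0.395 in Phd2 heterozygous and 1.60% ± 0.263 in wild-type tumours. Nearest to the Erbb2 bin were those of Pter, C1ql3 and Rsu1 (0.380), of Nsun6 and Arl5b (0.390) and of Trim32 (0.403). For Erbb3 they were the bin of Cdcp1, Tgm4, Clec3b and neighbours (0.377), that of Zhx3, Lpin3, Emilin3 and Chd6 (0.389) and that of Slc25a13 (0.406).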

How the data were processed

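5hmC was measured by shallow tet-assisted bisulfite sequencing (TAB-seq) in 13 tumours, with 1 table for all. The authors deposited 5hmC as a percent per 300 kb bin; the tool Bismark 0.13.1 and the build mm9 appear, without a role, per the submitters' processing notes. Chromosome ends of the table (chromosome 1 at 195471971) are those of GRCm38, which was used here. Pooling of calls within a bin, coverage and conversion rates: not given in the sources used here.

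Columns were matched by description and grouped by title. Bins of chromosome Y and mitochondria, or at 0 in all tumours, were left out, so 8576 of 9097 stayed. All bins were fitted with limma 3.58.1 (R 4.3.3) on percentages, 4 group means, with a trend and Benjamini-Hochberg adjustment at 0.05. This step was tested on simulated independent normal values, and its power for differences of the size seen here is not given. Single values were compared by exact two-sided permutation over tumours. Gene means are unweighted over bins; coordinates and genes come from RefSeq GRCm38.p6, strand from its promoter table and, for Nrg1 and Erbb3, from general knowledge. Nothing states that replicates are separate litters, so p-values measure the spread between these tumours. Members and lists were chosen with earlier results of these data known. Named pathway genes were, per branch, those with the highest and lowest level and the largest sFlk1 difference.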

Additional observations from a re-analysis of the deposited data

Results flagged for a closer look

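In the 18 sets of 4 values tested for Phd2 heterozygous tumours (13 bins, 3 gene means and 2 gaps), 1 tumour stood apart in 1 set: in Erbb4 bin 2 tumour 3 held 2.49%, against 1.70%, 1.73% and 1.61% in tumours 1, 2 and 4. Its gap to the nearest was 0.865 of the range, above Dixon's 95% critical value of 0.829 for 4 tumours. Chance flags about 1 in 20 such sets.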

How the results depend on the processing

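Calls in the 13 bins stayed at 0 with log2 and arcsine scales (arcsine chosen after seeing the data), scaling to the tumour's mean and no trend. They also stayed at 0 in the 6 tumours of the sFlk1 model alone, and with each of these left out of the full fit. Tumours of the Phd2 model were not left out of these fits in turn. With only bins above 0 in all tumours 10 of the 13 were fitted, without Nrg1 bin 1 and Erbb4 bins 3 and 4, and 0 were called. Over all bins 1 was called, and 1 to 4 with 1 tumour of the sFlk1 model left out. There were 4 without sFlk1 tumour 1, and 2 without sFlk1 tumour 2, sFlk1 tumour 3 or empty vector tumour 2. Replicate numbers did not pair the tumours: deviations of same-numbered sFlk1 and empty vector tumours correlated at -0.0526, -0.0421 and -0.0445. With the replicate block 1 bin was called over all bins and 0 of the 13, and the exact permutation p of the gene means ran from 0.25 to 0.75.

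With 1 flanking bin on each side, Nrg1 turned to 0.435 percentage points above its flanks (exact p = 0.375), Erbb2 passed at -1.23 (exact p = 0.0312), and Erbb3 no longer did at 0.492. With 10 flanking bins Egfr and Erbb4 kept their calls; for Erbb3 that alternative was not run, as the chromosome ends too near. With 1 of 6 tumours left out no sign permutation can pass, since its smallest p is then 0.0625. The gaps to the flanks ran from 2.01 to 2.39 at Egfr, 1.83 to 2.01 at Erbb3 and -1.14 to -0.843 at Erbb4, and the Nrg1 start gap from -2.29 to -1.77.

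Some differences between sFlk1 and empty vector tumours turned direction. Leaving out 1 tumour gave -0.640 to 0.0449 for the Erbb4 mean, -1.24 to 0.287 for its start gap, -0.406 to 0.174 for Nrg1 bin 1, -0.238 to 0.274 for Nrg1 bin 2, and -1.37 to 0.192, -0.0176 to 0.800, -0.687 to 0.217 and -0.542 to 0.605 for Erbb4 bins 1 to 4. Without a turn, it gave -1.27 to -0.463 for the Nrg1 mean, -1.18 to -0.306 for Egfr, -1.04 to -0.546 for Erbb2, -0.767 to -0.0216 for Erbb3, and 0.42 to 1.37 for the Nrg1 start gap. With the mean of all bins a gene overlaps, Map2k1 turned to 0.0597, Sos1 moved to -0.833, and 22 of 32 pathway genes were lower. Scaled to the tumour's mean, Nrg1 bin 2 turned to 0.0597, Erbb4 bin 4 to 0.0335, Adam10 to 0.0122 and Pik3r1 to 0.0213 times that mean, and Erbb4 bin 4 to 0.228 on the log2 and 0.0169 on the arcsine scale. Scaling moved the pathway genes higher in Phd2 heterozygous tumours to 12 of 32, against 28 unscaled, by dividing out the higher genome-wide mean of those tumours. Depth is unknown.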
